A study of Mus musculus with 6 samples.

Results

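The interferon-inducible GTPases described here are 10 mouse genes, 6 guanylate-binding protein genes (Gbp2, Gbp3, Gbp4, Gbp7, Gbp8 and Gbp9) and 4 immunity-related GTPase genes (Igtp, Irgm1, Irgm2 and Iigp1). They were picked out by gene symbol in the platform annotation, from a list of symbols drawn up with earlier results of these arrays known, and each was measured by a single probe set, so that 10 of the 19505 named genes on the array are members. Total RNA was measured in submandibular glands, a pair of major salivary glands, of 6 female NOD mice aged 10 weeks, with 1 Clariom S array per mouse. The NOD strain develops autoimmune infiltrates of its salivary glands and pancreas. The 2 groups were 3 mice with both copies of Myd88 (Myd88+/+) and 3 homozygous for its loss (Myd88-/-). The strain labels of both groups read NOD.B6, and the sources used here give neither the share of B6 genome nor the construct of the targeted allele. The comparison asked how levels of these transcripts differ with Myd88, the adaptor of most Toll-like receptors and of the interleukin-1 receptor family.

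Guanylate-binding proteins and immunity-related GTPases are made in many cell types after exposure to interferons, above all interferon-gamma. They assemble on the membranes of vacuoles that hold intracellular parasites and bacteria, and on bacteria in the cytosol, and help to open them and to activate inflammasomes. The Irgm proteins and Igtp sit on the cell's own membranes and hold the effector GTPases, such as Iigp1, in an inactive state until an infection is sensed. Their genes are switched on through 2 kinds of DNA element, the gamma-activated site (GAS) and the interferon-stimulated response element (ISRE), the latter bound by interferon regulatory factors.

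The upstream sequences of the members are shown because such genes are switched on by interferons through elements of these 2 kinds. Of the 10 members, 6 have a promoter window in the RefSeq table (GRCm38.p6), which spans 250 bases before to 50 bases after a transcript start, and Gbp3 has 2 such windows. The windows were searched for TTCNNNGAA (GAS, the same on both strands) and for GAAA, any 2 bases and GAAA again, or on the other strand TTTC, any 2 bases and TTTC (ISRE), and overlapping matches were counted separately. The lines below give 120 bases that end at the transcript start, 5′ to 3′ on the gene's strand, with matches in capitals. The line for Gbp3 stops short of the start of its window, because bases covered by another transcript of the gene are left out.
Gbp2, chr3:142620543-142620662, plus strand: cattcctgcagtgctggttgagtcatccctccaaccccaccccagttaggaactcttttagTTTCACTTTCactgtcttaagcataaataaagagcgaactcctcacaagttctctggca
Gbp3, chr3:142559924-142560015, plus strand: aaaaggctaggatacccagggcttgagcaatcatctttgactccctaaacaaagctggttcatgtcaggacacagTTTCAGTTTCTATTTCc
Gbp7, chr3:142530216-142530335, plus strand: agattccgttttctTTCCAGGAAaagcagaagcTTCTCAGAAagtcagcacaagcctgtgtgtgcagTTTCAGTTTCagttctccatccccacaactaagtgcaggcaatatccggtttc
Igtp, chr11:58199436-58199555, plus strand: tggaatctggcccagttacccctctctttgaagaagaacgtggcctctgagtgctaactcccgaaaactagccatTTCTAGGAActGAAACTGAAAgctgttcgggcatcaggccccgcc
Irgm2, chr11:58214857-58214976, plus strand: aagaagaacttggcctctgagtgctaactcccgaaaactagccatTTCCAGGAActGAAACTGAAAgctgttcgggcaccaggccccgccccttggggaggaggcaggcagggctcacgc
Irgm1, chr11:48871421-48871540, minus strand: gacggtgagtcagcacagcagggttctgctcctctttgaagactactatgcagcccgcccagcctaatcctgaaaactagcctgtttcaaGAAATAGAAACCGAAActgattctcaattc

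ISRE letters were present upstream of all 6 members with a window, whereas 1131 of the 32851 promoter windows of the table (3.44%) hold them. They began 59 bases before the start in Gbp2, 53 in Gbp7, 64 in Irgm2 and 34 in Igtp. In Gbp3 and in Irgm1, 2 overlapping matches were found, from 45 and 39 bases and from 30 and 24 bases before the start. The second window of Gbp3 held no match. GAS letters were present in 3 of the 6, namely Gbp7 with 2 matches, Igtp and Irgm2, against 2726 of 32851 windows (8.3%). In Igtp and Irgm2 the GAS match began 11 bases before the ISRE match. That spacing, noted after the sequences were seen, occurs in 5 of all 32851 windows, and all 5 belong to immunity-related GTPase genes, the other three being Tgtp1, Tgtp2 and Gm12185. These windows come from genes of 1 family and are not independent. In the 85 bases around the motifs, Igtp and Irgm2 are identical at 82 and Tgtp2 and Irgm2 at 51. Of 9 relatives with a window, 7 held ISRE letters and 5 held GAS letters. The map of matches by distance from the start shows the positions gene by gene. A match describes letters in these windows and is not evidence that a factor binds there.

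**Figure D1:**
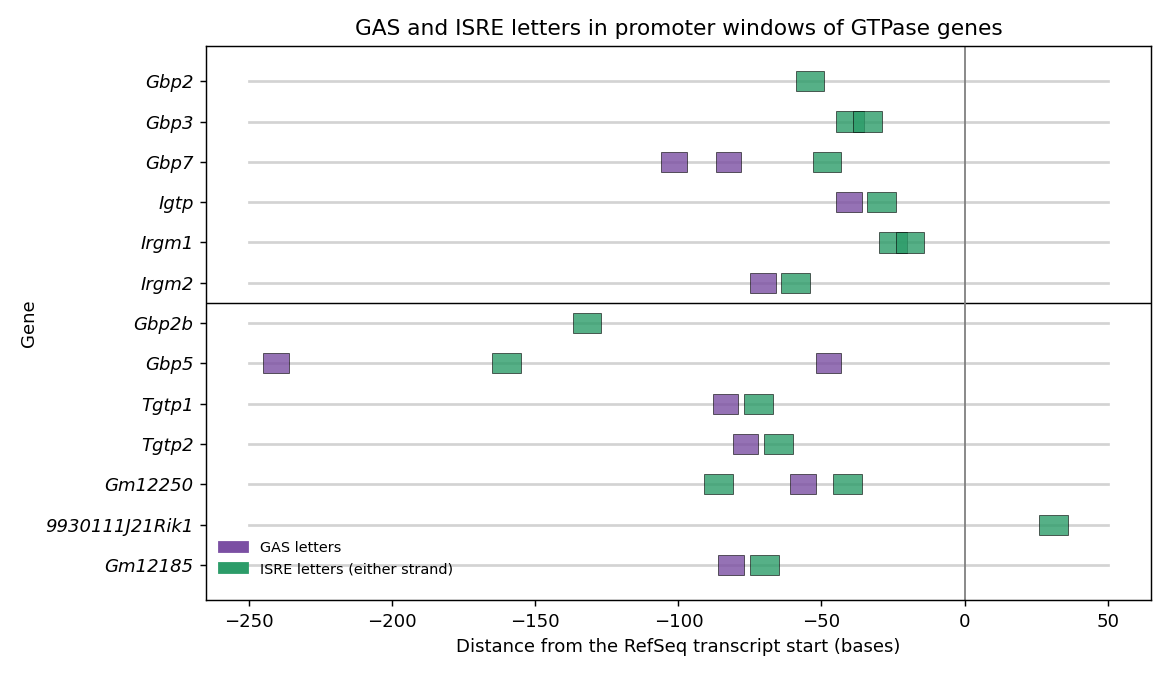
Position of GAS matches (purple) and ISRE matches (green) in the promoter windows of the GTPase genes that hold at least 1 match, with distance from the RefSeq transcript start in bases on the x axis and 1 gene per row. The 6 genes above the line are members and the genes below it are relatives; in the members every ISRE match begins between 64 and 24 bases before the start.

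The arrays were of like range, with array medians between 6.0 and 6.1 on the log2 scale and correlations of r = 0.982 to 0.991 over the 15 pairs of arrays. Signal of the 23 background control probe sets had a median of 5.55. Signal for Myd88 itself was 7.81, 7.86 and 7.53 in Myd88+/+ replicates 1 to 3 and 7.33, 6.80 and 7.47 in Myd88-/- replicates 1 to 3 (log2 difference −0.53, limma adjusted p = 0.462). The sources used here do not place this probe set inside or outside the deletion, and one outside it checks nothing about the labels.

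All 10 GTPase genes had a lower mean in Myd88-/- than in Myd88+/+ glands, against 47.5% of all probe sets. Their log2 differences ran from −1.92 for Gbp2 to −0.64 for Gbp9. The median was −1.47, where the median over all 22206 tested probe sets was 0.02. No member passed limma's test over all probe sets (0 of 10, adjusted p from 0.345 to 0.575), and neither did any other probe set (0% called, smallest adjusted p 0.128). At an unadjusted p under 0.05, 8 of the 10 were lower, against 5.55% of all probe sets. Of the 10, 9 were at least 2-fold lower, against 0.829% of all probe sets. In 6 of the 10 every Myd88-/- value lay below every Myd88+/+ value, a pattern found in 7.25% of all probe sets. Whole glands were measured, so fewer cells that make these transcripts and less transcript per cell cannot be told apart.

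Gbp2, whose protein carries a lipid anchor and gathers on vacuoles of Toxoplasma, read 8.12, 9.40 and 10.13 in Myd88+/+ replicates 1 to 3 and 6.99, 7.93 and 6.96 in Myd88-/- replicates 1 to 3. The groups did not overlap, although Myd88-/- replicate 2 came close to Myd88+/+ replicate 1. Its means were 9.21 ± 1.02 and 7.29 ± 0.55 (SD, n = 3 each). The log2 difference was −1.92 (SE 0.47, limma adjusted p = 0.345), or 3.79-fold lower in Myd88-/-.

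Gbp3, its neighbour on chromosome 3, read 6.76, 8.06 and 8.78 in Myd88+/+ and 6.21, 6.23 and 6.63 in Myd88-/- replicates 1 to 3. Again no value of one group lay within the other, with Myd88+/+ replicate 1 only just above the highest Myd88-/- gland (log2 difference −1.51, SE 0.43, limma adjusted p = 0.382). Gbp7, known for its part in the oxidative and autophagic killing of bacteria by macrophages, read 8.05, 9.71 and 10.25 in Myd88+/+ and 8.10, 7.63 and 7.74 in Myd88-/- replicates 1 to 3. Here the groups overlapped, because Myd88+/+ replicate 1 read below Myd88-/- replicate 1 while the other two wild-type glands were far above (log2 difference −1.51, SE 0.47, limma adjusted p = 0.395). Mice that lack the chromosome 3 cluster as a whole are known to control Toxoplasma poorly.

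The members of the chromosome 5 cluster differed among themselves. Gbp4 read 8.90, 9.90 and 11.33 in Myd88+/+ and 8.59, 8.82 and 8.39 in Myd88-/- replicates 1 to 3, without overlap (log2 difference −1.44, SE 0.50, limma adjusted p = 0.431). Gbp8 read 5.62, 5.61 and 7.71 in Myd88+/+ and 5.44, 4.65 and 4.99 in Myd88-/- replicates 1 to 3. In Gbp8 only Myd88+/+ replicate 3 stood clearly above the background median of 5.55 and the Myd88-/- mean of 5.02 lay under it, so the size of its difference (−1.29, SE 0.51, limma adjusted p = 0.457) is uncertain. Gbp9 had the smallest difference of the 10, with 6.53, 7.47 and 8.10 in Myd88+/+ against 6.73, 6.96 and 6.49 in Myd88-/- replicates 1 to 3 (−0.64, SE 0.35, limma adjusted p = 0.575). Its groups overlapped, and Myd88+/+ replicate 1 read below the mean of the Myd88-/- glands.

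**Figure D2:**
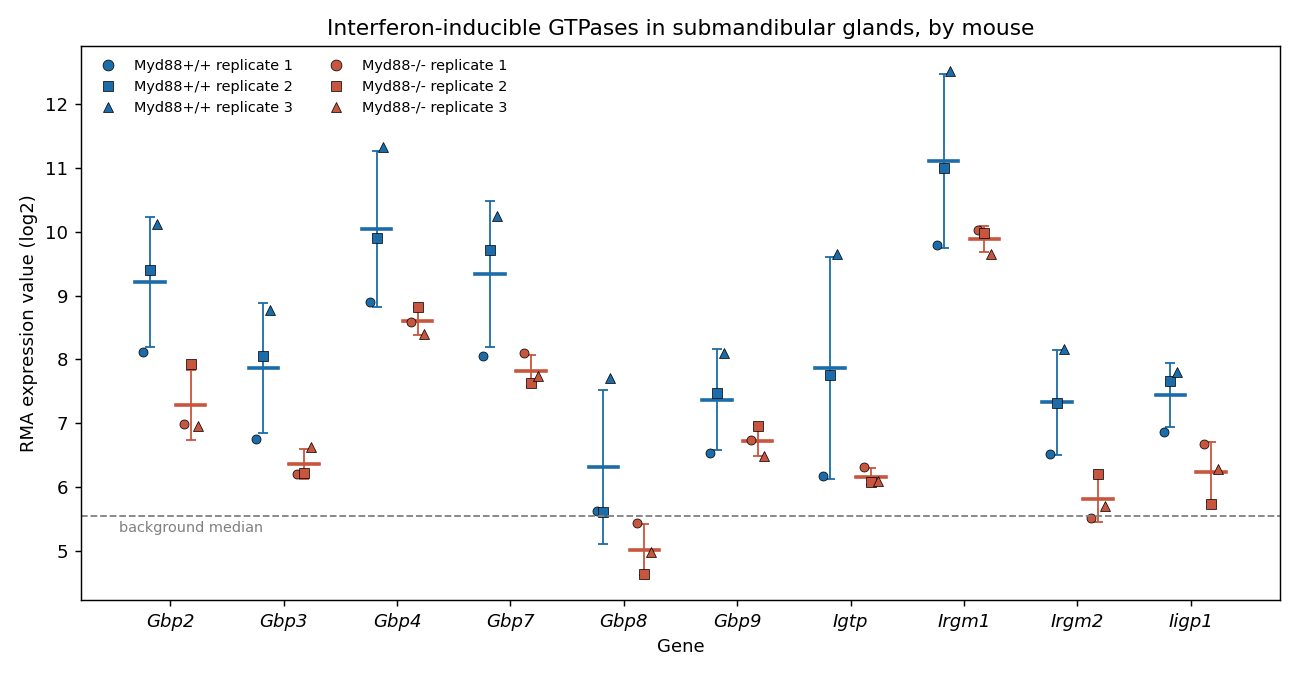
RMA expression values (log2, y axis) of the 10 GTPase genes (x axis) in 3 Myd88+/+ glands (blue) and 3 Myd88-/- glands (red), with the symbol giving the replicate, horizontal bars the group mean and error bars the SD. Myd88+/+ replicate 3 is the highest value of every gene, and values of different genes come from different probe sets and are not comparable in height.

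Among the immunity-related GTPases, the regulators gave like differences with unlike overlap. Irgm1, whose loss in mice is known to cause susceptibility to mycobacteria and a fall in lymphocytes on infection, read 9.79, 11 and 12.51 in Myd88+/+ and 10.03, 9.98 and 9.65 in Myd88-/- replicates 1 to 3. The groups overlapped, since Myd88+/+ replicate 1 read below the highest pair of Myd88-/- glands (log2 difference −1.22, SE 0.55, limma adjusted p = 0.502). Irgm2, a relative found on Golgi membranes, read 6.51, 7.32 and 8.16 in Myd88+/+ and 5.52, 6.21 and 5.71 in Myd88-/- replicates 1 to 3. It showed no overlap (log2 difference −1.52, SE 0.37, limma adjusted p = 0.345), and 1 of its 6 values, in Myd88-/- replicate 1, lay under the background median.

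Igtp, also called Irgm3 and found on the endoplasmic reticulum, had the widest spread between wild-type glands, with 6.18, 7.76 and 9.65 in Myd88+/+ replicates 1 to 3. Its Myd88-/- values of 6.32, 6.08 and 6.10 lay within 0.23 of each other. Myd88+/+ replicate 1 fell inside that narrow range, so the log2 difference of −1.69 (SE 0.68, limma adjusted p = 0.462) came from replicates 2 and 3 of the wild type. Iigp1, the effector also known as Irga6 that coats parasite vacuoles, read 6.87, 7.67 and 7.80 in Myd88+/+ and 6.68, 5.74 and 6.29 in Myd88-/- replicates 1 to 3. It did not overlap and was the member whose wild-type spread was closest to its knockout spread (SD 0.50 and 0.48, log2 difference −1.21, SE 0.30, limma adjusted p = 0.356). For single members the two-sided exact permutation p was 0.1 in the 6 genes without overlap, the smallest that 3 mice against 3 allow, and 0.2 or 0.3 in Gbp7, Gbp9, Igtp and Irgm1.

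The same wild-type glands were high and low across the members. Myd88+/+ replicate 3 was the highest of the 6 arrays in 10 of 10 members, against 14.3% of all probe sets, and Myd88+/+ replicate 1 was the lowest of its group in 9 of 10, against 34%. The exception was Gbp8, in which replicates 1 and 2 read alike. The range among the wild-type glands lay between 0.93 (Iigp1) and 3.47 (Igtp) log2 units. The Myd88-/- glands had no such shared ranking, replicate 1 being highest of its group in 5 members, replicate 2 in 4 and replicate 3 in 1. Wild-type SDs exceeded knockout SDs in 10 of 10 members, against 45.7% of all probe sets, with medians of 1.09 and 0.24, where the medians over all probe sets were 0.21 and 0.23. The ratio of wild-type to knockout SD ran from 1.06 in Iigp1 to 13.6 in Igtp.

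Averaged over the 10 members, after each gene's mean over the 6 mice was subtracted, the glands stood at −0.36, 0.70 and 1.75 in Myd88+/+ and −0.63, −0.67 and −0.80 in Myd88-/- replicates 1 to 3. Both families gave near-equal averages, with −0.34, 0.70 and 1.72 for the Gbp members and −0.39, 0.71 and 1.80 for the immunity-related members in the wild type. Replicate 1 of the wild type was therefore the gland nearest to the knockouts, and was above all 3 of them in 6 of 10 members (28.1% of all probe sets), whereas replicates 2 and 3 were above all 3 in 10 of 10 (24.2% and 22.9% of all probe sets). Without Myd88+/+ replicate 3 the median difference was −0.91, and without Myd88+/+ replicate 1 it was −1.97, with 10 of 10 members free of overlap, against 11.2% of all probe sets in that smaller comparison. No member passed limma's adjusted test without either mouse. Gbp7 came closest, at an adjusted p of 0.053 without Myd88+/+ replicate 1, in a range of 0.053 to 0.684 over all settings tried. Leaving out the gland nearest to the other group widens the difference and is no independent support.

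**Figure D3:**
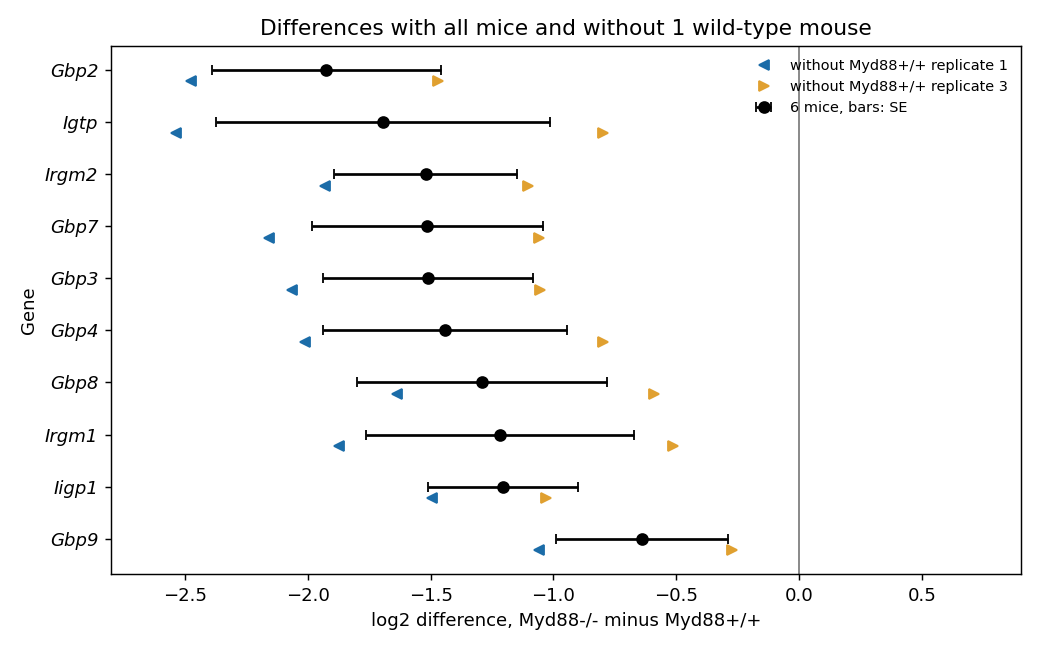
Log2 difference between Myd88-/- and Myd88+/+ glands (x axis, below 0 is lower in Myd88-/-) for the 10 GTPase genes (y axis), with black points and SE bars from all 6 mice, and triangles without wild-type replicate 1 (blue) or replicate 3 (yellow). All points lie below 0; without replicate 3 the values run closer to 0, down to −0.27 in Gbp9.

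Over the 6 mice the values of any 2 members correlated at r = 0.718 to 0.994, with a median of 0.913 over 45 pairs. These pairs share the same arrays and the difference between the groups, so the values describe likeness in these 6 glands. The members are also related in sequence, and whether their probe sets share or cross-detect transcripts could not be checked for any of the values above. Igtp with Irgm1 was the closest pair (r = 0.994), then Gbp2 with Irgm2 (r = 0.992), and Gbp9 with Iigp1 the least alike (r = 0.718). Neither of the closest pairs shares a gene cluster.

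Genes outside the families whose log2 values were most like the average of the members over the 6 mice were S100a4 (r = 0.999), Phf11b, Klri2, Ctss and H2-K1 (r = 0.993 to 0.996). They were picked from 2157 genes with a mean above the array median and a range of at least 1 log2 unit, of which 60 reached r = 0.95. S100a4, a calcium-binding protein of motile cells, differed by −0.60, Ctss, a protease of antigen processing, by −1.04 and H2-K1, an MHC class I heavy chain, by −1.04. Klri2, a lectin-like receptor of NK cells, differed by −0.90 and Phf11b by −1.0. None of the 5 passed limma's adjusted test (adjusted p from 0.411 to 0.452).

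Of the relatives in the same families, 5 other Gbp genes were not analysed here. Among 9 other immunity-related GTPase genes, 7 were lower and 2 higher, 5 were lower at an unadjusted p under 0.05 and 0 passed the adjusted test, with a median log2 difference of −0.59. Tgtp2, which encodes the effector Irgb6, read 7.90, 8.11 and 10.87 in Myd88+/+ and 6.65, 6.64 and 6.20 in Myd88-/- replicates 1 to 3. Its groups did not overlap and its log2 difference of −2.46 (SE 0.65, limma adjusted p = 0.368) was larger than that of any member. Its near-identical copy Tgtp1 was not analysed here, and the same doubt about shared probes holds for these relatives. 9930111J21Rik1 and 9930111J21Rik2 had −1.17 and −1.51. Gm5431 had −0.59 and Gm4841 −0.49. Gm12250, which encodes the effector Irgb10 that targets bacterial membranes, had −0.59 with overlapping groups, F830016B08Rik −0.40, Irgc1 0.12 and Gm4951 0.10. All 6 values of Gm4841, Irgc1 and Gm4951 lay under the background median, as did 4 of 6 for Gm12250 and 2 of 6 for F830016B08Rik.

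The larger interferon-inducible GTPases differed in direction. Gvin1, a very large GTPase of unclear function, read 7.57, 7.81 and 8.53 in Myd88+/+ and 6.84, 6.17 and 6.79 in Myd88-/- replicates 1 to 3, without overlap (log2 difference −1.37, SE 0.28, limma adjusted p = 0.321). Mx2 differed by −0.20. Mx1, a dynamin-like antiviral GTPase that RefSeq lists as a transcribed pseudogene in the reference strain, read 4.48, 5.12 and 6.68 in Myd88+/+ and 6.36, 5.94 and 6.33 in Myd88-/- replicates 1 to 3. Its mean difference was 0.79 in the other direction (limma adjusted p = 0.603). Myd88+/+ replicate 3 was again the highest gland, but all Myd88-/- glands read above the other two wild-type glands. Constitutive dynamin, atlastin, mitofusin and Ehd GTPases were a comparison list outside the interferon response. Of its 12 genes 11 were lower with a median of −0.10, and 0 passed at an unadjusted p under 0.05. Of all probe sets 47.5% were lower, and without the dimmest 50% their median was −0.07. Small negative medians of bright lists thus lie near that of bright probe sets in general.

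**Figure D4:**
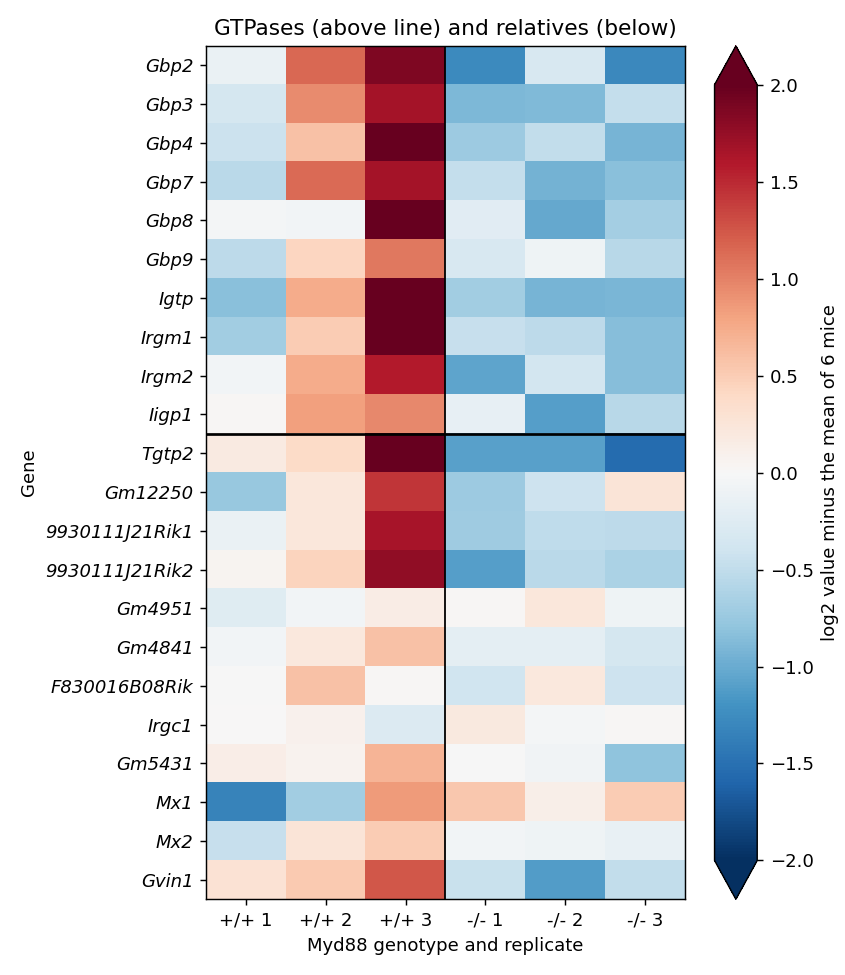
Log2 value minus the mean of the 6 mice (colour, limited to between −2 and 2) for the 10 GTPase genes above the line and 12 measured relatives below it (y axis), in each mouse by Myd88 genotype and replicate (x axis). The members are highest in Myd88+/+ replicate 3 and low in all Myd88-/- glands, as is Tgtp2, whereas Mx1 is lowest in Myd88+/+ replicate 1.

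The members lie in 5 gene clusters. Gbp2, Gbp3 and Gbp7 stand in a cluster on chromosome 3, Gbp4, Gbp8 and Gbp9 in one on chromosome 5, Irgm1 in one on chromosome 11, Igtp and Irgm2 in another on the same chromosome, and Iigp1 in one on chromosome 18. None shares chromosome 9 with Myd88. Of the 30 measured genes that flank the clusters, 3 on each side, 18 were lower, 1 passed at an unadjusted p under 0.05 (Lrrc8c beside the chromosome 5 cluster, −0.53, with all 6 values under the background median) and 0 were at least 2-fold lower, with a range of −0.57 to 0.49 and a median of −0.06. The 6 genes around the chromosome 3 cluster, such as Gtf2b at −0.06 and Kyat3 at −0.42, were all lower but none at an unadjusted p under 0.05.

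Among 13 measured genes of interferon-gamma, its receptor and its signalling, 10 were lower and 3 higher with a median log2 difference of −0.18, 3 were lower at an unadjusted p under 0.05 and 0 passed the adjusted test. Those 3 were Jak2, a kinase of the receptor, with −0.98, Irf1, the transcription factor that binds ISRE-like elements, with −1.07 and Ptpn6, a phosphatase that limits signalling, with −0.71. Irf1 read 8.27, 8.16 and 9.06 in Myd88+/+ and 7.34, 7.83 and 7.11 in Myd88-/- replicates 1 to 3, without overlap (limma adjusted p = 0.361). Jak1 had −0.36. Ifng, the ligand, named after its values were seen, read 5.53, 5.41 and 5.71 in Myd88+/+ and 5.70, 4.53 and 5.48 in Myd88-/- replicates 1 to 3. These lie around the background median, so a difference in Ifng was not detectable here.

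Among 8 genes of the type I and type III interferon receptors and their signalling, 7 were lower with a median of −0.37, 2 of them at an unadjusted p under 0.05 and 0 after adjustment. The receptor chain Ifnar2 had −0.44, the transcription factors Irf9 and Stat2 had −0.81 and −0.68, and the receptor kinase Tyk2 had −0.31. Of 9 genes of cytokines and factors that drive interferon-gamma production, 4 were lower and 5 higher (median 0.01), and 4 of the 9 had all values under the background median. Stat4 was the single one lower at an unadjusted p under 0.05, but 5 of its 6 values and both of its group means lay under the background median, so the size of its difference is not interpretable.

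Genes that the GTPases act with were taken as 3 lists. Of 11 genes of the ubiquitin-like conjugation system that places the GTPases on vacuoles, 8 were lower and 3 higher (median −0.13), 3 of them lower at an unadjusted p under 0.05 and 0 after adjustment. These were Atg7, its activating enzyme, with −0.74, Gabarapl2 with −0.52 and Map1lc3b with −0.52, while the conjugated protein Atg12 had 0.38. For Atg7, 2 of 6 values and the Myd88-/- mean lay under the background median. Of 7 genes of vacuole recognition all 7 were lower (median −0.20), 1 at an unadjusted p under 0.05, the antibody receptor and ubiquitin ligase Trim21 with −1.0. For Trim21, 2 of 6 values and the Myd88-/- mean lay under the background median. Of 10 inflammasome genes 8 were lower (median −0.14), 3 at an unadjusted p under 0.05 and 0 after adjustment. They were Casp4, the sensor of cytosolic lipopolysaccharide that GBP proteins help to engage, with −0.92, Casp1 with −0.69 and the DNA sensor Aim2 with −0.73. For Aim2, 2 of 6 values lay under the background median. In 4 of the 10 inflammasome genes every value lay under it. Casp4 read 7.02, 7.79 and 7.83 in Myd88+/+ and 6.74, 6.65 and 6.5 in Myd88-/- replicates 1 to 3, without overlap (limma adjusted p = 0.359).

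Leukocyte markers were lower in the same glands as the GTPases. All 8 pan-leukocyte genes were lower, 5 at an unadjusted p under 0.05, with a median difference of −0.81. Their mean level ranged from 8.70 to 9.99 in Myd88+/+ and from 8.18 to 8.37 in Myd88-/- glands, and none lay under the background median in all mice. Cd52 and Coro1a, for example, had −1.83 and −0.76, with 4 of the 6 Coro1a values under that median. On the scale of the mouse averages given above, the pan-leukocyte list stood at −0.06, 0.30 and 1.23 in Myd88+/+ and −0.39, −0.52 and −0.57 in Myd88-/- replicates 1 to 3, so wild-type replicate 3 was the highest here too.

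Macrophage and monocyte markers had 11 of 11 genes lower, 10 at an unadjusted p under 0.05. Ly6c2 and Itgam, for example, had −1.07 and −1.36, with 3 of 6 Itgam values and its Myd88-/- mean under the background median. The mean level of these markers was 7.79 to 8.59 in Myd88+/+ against 6.92 to 7.23 in Myd88-/- glands. Their mouse averages were 0.17, 0.41 and 0.97 in Myd88+/+ and −0.48, −0.39 and −0.70 in Myd88-/- replicates 1 to 3, with every wild-type gland above every knockout gland. T cell markers had 9 of 10 lower, 0 at an unadjusted p under 0.05 (Cd3e −1.44 and Cd3g −1.14, with 4 and 5 of 6 values under the background median), with mean levels of 5.70 to 6.80 against 5.66 to 5.86 and mouse averages of −0.30, 0.21 and 0.80 against −0.24, −0.34 and −0.13. In that list, as in 4 of the GTPases, wild-type replicate 1 was not above all knockout glands. NK cell markers had 6 of 8 lower, 4 at an unadjusted p under 0.05 (Klrb1c and Ncr1 among them), with mean levels of 5.32 to 5.90 against 5.16 to 5.28. All 6 Klrb1c values and 4 of 6 Ncr1 values lay under the background median, so the sizes of their differences are not interpretable. Every value lay under it in 2 of the 8 genes, Klrb1c among them. Klrk1 (−0.77) and Gzma (−0.88), named after their values were seen, were also lower at that p. Neither had a value under the background median, and their groups did not overlap (limma adjusted p = 0.45 and 0.394). The 2 NK cell genes that were higher, also named after their values were seen, were Gzmb (0.36, without overlap) and Klrd1 (0.21). Of their 6 values, 5 and 4 lay under the background median.

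B cell markers, 4 of 7 lower and 0 at an unadjusted p under 0.05 (Cd79a −0.22 and Cd22 0.09), had mean levels of 4.45 to 5.04 against 4.61 to 4.81, under the background median in both groups. Plasma cell markers had 3 of 6 lower and 3 higher with a median of −0.05, and 3 of the 6 had all values under the background median. Jchain, at −2.18 with overlapping groups, was the single one lower at an unadjusted p under 0.05. Fibroblast markers had 6 of 6 lower, 5 at an unadjusted p under 0.05 (Col1a2 −1.12 and Dpt −1.30), with mean levels of 11.3 to 12.1 against 10.4 to 11.1. Their mouse averages were 0.131, 0.256 and 0.855 in Myd88+/+ and −0.342, −0.095 and −0.805 in Myd88-/- replicates 1 to 3. Every wild-type gland was thus above every knockout gland and wild-type replicate 3 was the highest, as in the pan-leukocyte and macrophage lists. Endothelial markers, whose cells are known to make GBP proteins, had 6 of 7 lower but 0 at an unadjusted p under 0.05 (Pecam1 −0.32 and Cdh5 −0.27), with mean levels of 7.0 to 7.36 against 6.80 to 7.24. Of 7 acinar and 4 granular duct genes of the submandibular gland, 2 and 1 were saturated on all arrays and left out of the counts. Of the others 1 was lower at an unadjusted p under 0.05, Bpifa2 of the acinar list at −2.66. In it Myd88+/+ replicate 3 read among the knockout glands. Whether Bpifa2 marks acinar cells of these glands was not tested. The median over the acinar genes left in the counts was −0.09. Myoepithelial and basal cell markers had 7 of 7 lower, 2 at an unadjusted p under 0.05 (Trp63 −1.18 and Acta2 −0.81), and duct markers 6 of 9, 1 at that p (Ascl3 −0.96, with Elf5 at 0.48). The part of cell composition in the GTPase differences was not tested. The plot of list averages by mouse sets the members beside these lists.

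**Figure D5:**
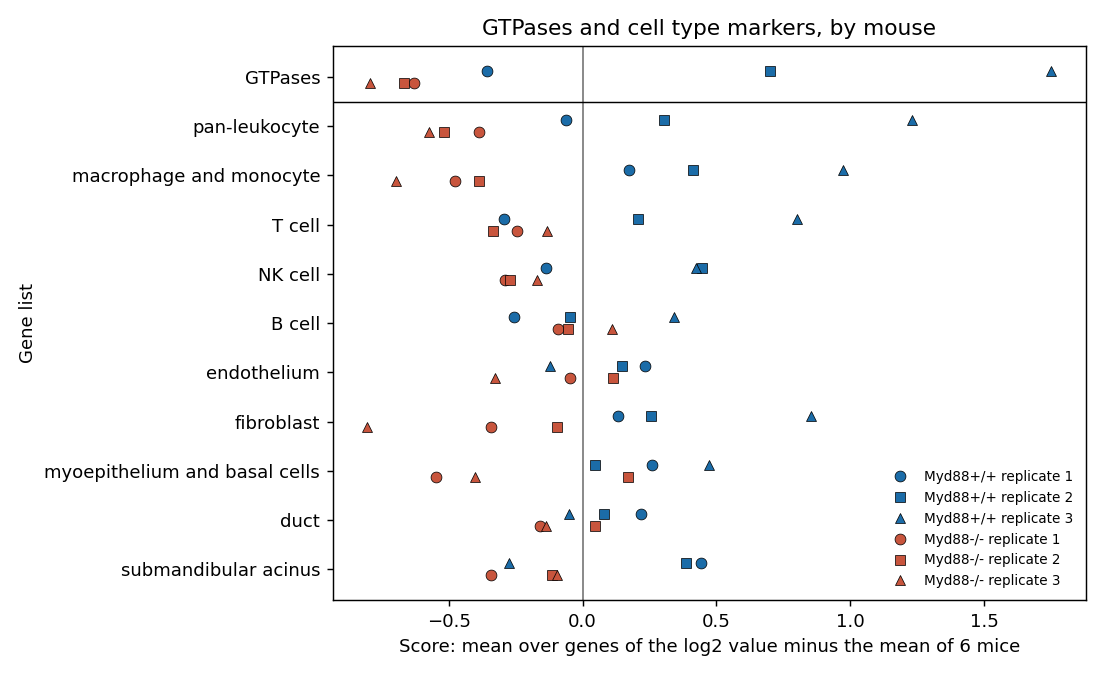
Average by mouse (x axis, mean over genes of the log2 value minus that gene's mean over 6 mice) of the 10 GTPase genes and of 10 cell type marker lists (y axis), with Myd88+/+ glands in blue, Myd88-/- glands in red and the symbol giving the replicate. Myd88+/+ replicate 3 is highest for the GTPases (1.75), pan-leukocyte genes (1.23), macrophage genes (0.97) and T cell genes (0.80). It is also highest for fibroblast genes (0.855), myoepithelial and basal cell genes (0.471) and B cell genes (0.341). For NK cell genes it is below Myd88+/+ replicate 2 (0.422 against 0.448). It is the lowest wild-type gland for endothelial (−0.121), duct (−0.05) and acinar genes (−0.274).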

How the data were processed

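Each mouse gave 1 Clariom S array. The authors deposited log2 values, summarised by robust multi-array average (RMA) per the labels, with the Transcriptome Analysis Console named in the submitters' processing notes. RMA subtracts background, normalizes and summarises probes, so differences near background are shrunk. The sources used here do not give the software version or genome build. The range of the values fits a log2 scale.

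Of 28846 probe sets, 6640 controls were left out. Of 22206 tested, 19572 had 1 platform gene symbol, 0 several and 2634 none, and all 19572 Entrez identifiers were found in RefSeq GRCm38.p6 (0 symbols updated). The probe set with the highest mean stood for a gene. Groups came from the sample titles. limma 3.58.1 in R 4.3.3 (lmFit, eBayes) compared Myd88-/- with Myd88+/+ over all tested probe sets, with Benjamini-Hochberg adjustment and a threshold of 0.05. The fit was tested on simulated data with larger differences than those of the members and with equal spread in both groups. That test does not cover unequal spreads such as those of the members. Exact permutation tests used SciPy 1.17.1. The 6 arrays limit the precision of every value.

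Members and gene lists were chosen with earlier results of these data known. Named genes are all members and relatives, up to 4 genes per pathway list and up to 2 per marker list with the smallest unadjusted p, the 5 genes most like the members, flanking genes and Myd88. Ifng, Klrk1, Gzma, Gzmb and Klrd1 were added after their values were seen. Flanking genes follow RefSeq gene order. Same-numbered mice did not deviate together (r = −0.113, −0.155 and −0.019), so the numbers were not taken as pairs. Alternatives were other normalizations, filters, variance models, the replicate number as a block, averaging of probe sets and leaving out each mouse.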

Additional observations from a re-analysis of the deposited data

How the results depend on the processing

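All 159 member differences recomputed under 16 alternatives kept their lower direction and none passed limma's adjusted test, which 0 to 5 of all probe sets passed. The filter on the dimmest 50% of probe sets left out 1 member. The count of members lower at an unadjusted p under 0.05, 8 with all mice, was 3 without variance moderation (3.81% of all probe sets) and 5 to 10 without 1 mouse (3.77% to 7.32% of all probe sets), with the lowest count without Myd88-/- replicate 3 (3.77%). The count without overlap between groups, 6 with all mice, was 6 to 10 without 1 mouse (10.9% to 15.5% of all probe sets), and reached 10 without Myd88+/+ replicate 1. Leaving out a mouse cannot lower this count, so that range is no check of it. It was 5 under quantile normalization and under cyclic loess, 5 of 9 without the dimmest 50% and 7 under median centring. The share of all probe sets was not computed for those settings. The median difference of −1.47 ran from −1.97 to −0.91 without 1 mouse and from −1.57 to −1.37 under the other settings. With the replicate block the median was −1.47 and 9 members were lower at an unadjusted p under 0.05 (4.66% of all probe sets), against 8 without it. With the block 0 members passed the adjusted test, so it changed no adjusted call. Signal near background limits Gbp8.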

Other observations

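Measured genes outside the 10 members were also split by the letters in their promoter windows. Of 612 genes with ISRE letters, 56 (9.15%) were lower in Myd88-/- glands at an unadjusted p under 0.05 in limma's fit, and of 15073 genes without them 848 (5.63%) were. The median log2 differences were −0.01 and 0.01. With and without GAS letters the shares were 7.15% of 1413 genes and 5.63% of 14272. Of 91 genes with both ISRE and GAS letters 11 (12.1%) were lower at that p and the median was 0.04, against 893 of 15594 (5.73%) and a median of 0.01 for the rest. These values describe the arrays and were not tested, and genes of the same families stand among them.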
